A study of Mus musculus and Homo sapiens with 10 samples.

Results

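Untreated mouse and human embryonic stem cells (ESCs) were set side by side, gene by gene and repeat by repeat. All libraries labelled as controls were taken, 5 of the 10 in the series, namely 4 of mouse ESCs (mESC) and 1 of human ESCs (hESC). Genes were matched by equal symbol after conversion to capitals, so symbols are given in capitals for both species. Of 25899 genes in the mouse table and 35720 in the human table, 14881 matched, 9 on the Y chromosome or equal to XIST were left out, and 13385 had at least 1 read in at least 1 of the 5 libraries and were ranked. The series as a whole asks how vitamin C, at 100 µg/ml for 24 hours, changes transposon expression, and the cells described here received none.

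The mESCs were the E14 line, grown in 2i medium with 1 µM of the MEK inhibitor PD-035901, 3 µM of the GSK3 inhibitor CHIR-99021 and 1000 U/ml of leukaemia inhibitory factor (LIF). The hESCs were labelled as the H9 line. The protocol in the labels gives KSR/FGF medium with 20% knockout serum replacement and 10 ng/ml basic fibroblast growth factor. The study's methods describe that medium for H9-NK2 cells, an H9 derivative with doxycycline-inducible KLF2 and NANOG transgenes, and the labels of the human libraries name H9 alone. For primed H9 cells the methods give another culture, HFF-conditioned medium with added FGF on Matrigel. Which line and medium gave the human library is thus not settled. RNA from the 4 mESC libraries is labelled total RNA and RNA from the hESC library polyA RNA. The study's methods describe only ribosomal RNA depletion of total RNA, with no distinction by species, and the protocol in the labels names a depletion kit or an mRNA isolation kit without saying which served which library. The RNA type therefore rests on that label alone. Species, pluripotency state, medium and labelled RNA type changed together and cannot be told apart. With 1 human library no difference between the species has a replicate check, so values and their spread over the 4 mESC libraries are given with no test. In bulk RNA, fewer cells expressing a gene and less RNA per cell cannot be told apart either.

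ESCs can be held in different states of pluripotency. Mouse ESCs in 2i resemble the preimplantation epiblast and run on LIF and STAT3 together with transcription factors such as ESRRB, KLF2, KLF4 and TFCP2L1. Conventional human ESCs resemble the later, primed epiblast, depend on FGF and activin signals, and are known for OTX2, SOX11 and the FGF and Nodal pathways. Both states share a core of POU5F1, SOX2 and SALL4.

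Recovered counts (see the processing account), called reads below, over the ranked genes numbered 5376310, 4529020, 3910540 and 6001190 in mESC libraries 1 to 4 and 13873000 in the hESC library. In hESC a recovered count cannot be taken as 1 aligned read. Over all genes they came to 1.77 times the aligned library size given in the repeat table, against 0.741 to 0.821 times in mESC, and 1580 genes had a count of 1, 356 a count of 2 and 740 a count of 3, while these numbers fell evenly in mESC. Low human counts may therefore stand for fewer reads than they show, and no counting interval is given for them. RPM and percentiles are relative within a library. Levels are given as reads per 1000000 of these reads (RPM), in the order of mESC libraries 1 to 4 and then hESC, and are not corrected for gene length. A percentile is a gene's rank within its own library, from 0 for the lowest to 100 for the highest. A gene was called higher in one species when the hESC percentile lay at least 25 points above, or below, that of every mESC library. A gene above percentile 75 in any mESC library, as 3692 of the ranked genes were, could not be called higher in hESC whatever its level, and 3790 below percentile 25 could not be called higher in mESC. The lack of a call is thus no sign of equal levels. The rank correlation (Spearman) was 0.983 to 0.993 between mESC libraries and 0.728 to 0.731 between each mESC library and the hESC library, over the same genes, which are not independent replicates. By the 25-point rule 958 genes ranked higher in hESC (7.16% of those ranked) and 972 ranked higher in mESC (7.26%). Counts of called list members below are to be read beside these shares. Among genes with at least 100 reads in each mESC library, 11.7% were called higher in mESC. With a difference of at least 4-fold from every mESC library in place of ranks, 1866 were higher in hESC (13.9%) and 1174 higher in mESC (8.77%). The mESC libraries were not interchangeable. Over the ranked genes with at least 10 reads in each of them, libraries 1 and 2 deviated together from the mean of the 4. So did libraries 3 and 4 (correlation 0.538 and 0.510). The label names divide in the same way, with VC10 and VC11 for the first pair and VC35B and VC35C, which share a number, for the second. What that number marks is not stated.

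The 5 marker genes went with the labelled states in part. ESRRB, a nuclear receptor of the naive network (mouse chr12:86361117-86521628, GRCm38; human chr14:76310712-76501837, GRCh38), stood at 792, 833, 843 and 798 RPM in mESC and 0.0721 RPM in hESC. That human level is a count of 1. KLF4, a Krüppel-like factor of the same network (mouse chr4:55527143-55532466; human chr9:107484852-107490482), stood at 308, 323, 237 and 224 RPM in mESC and 5.91 RPM in hESC. ZFP42, a zinc finger gene used as a mark of undifferentiated mouse cells (mouse chr8:43295063-43306980; human chr4:187995771-188005046), stood at 441, 451, 522 and 492 RPM and 80.2 RPM. Its percentile of 77.7 in hESC lay below the 97.4 to 97.9 of mESC by less than 25 points, so it was not called. OTX2, a homeobox factor of the primed state (mouse chr14:48657677-48673819; human chr14:56799905-56816693), stood at 3.72, 7.29, 13 and 16.2 RPM and 66.2 RPM and was called higher in hESC. DNMT3B, a de novo DNA methyltransferase (mouse chr2:153649450-153687730; human chr20:32762385-32809359), was near the top of all 5 libraries, at 352, 345, 399.7 and 364 RPM in mESC and 538 RPM in hESC. Its rank in mESC left no room for a call, and its level in hESC lay above all 4 mESC libraries.

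The naive genes ranked far lower in hESC. Of the 20 ranked members of the naive list, 15 were called higher in mESC, 1 was called higher in hESC and 4 were not called. Their median percentile difference (hESC minus the mESC mean) was -49.7 points, beside 0.571 over all ranked genes. The summed level of the list was 6775 to 7465 RPM in mESC and 514 RPM in hESC.

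TFCP2L1, a transcription factor of the naive network, stood at 2149.6, 2243, 1992 and 1780.2 RPM in mESC and 0.505 RPM in hESC from a count of 7. KLF2 stood at 384, 391, 394 and 354 RPM and 0.216 RPM. The human value is a count of 3. TBX3, a T-box factor, stood at 328, 363, 320.2 and 299 RPM and 0.793 RPM. All 3 of these genes held percentiles above 94 in each mESC library and under 19 in hESC.

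FGF4, the growth factor that mouse ESCs secrete, stood at 305, 344, 344 and 337 RPM in mESC and 1.44 RPM in hESC. FBXO15, an F-box gene bound by the pluripotency factors, stood at 339, 319, 361 and 368 RPM and 1.15 RPM. KLF5, a further Krüppel-like factor, stood at 229, 244, 192 and 211 RPM and 5.48 RPM. No mESC library overlapped the human value for any of these genes. The nuclear receptors NR5A2 and NR0B1 followed the same order. NR5A2 stood at 130.2, 149, 156 and 133 RPM and 4.9 RPM, and NR0B1 at 71.1, 79.7, 134 and 129 RPM and 0.0721 RPM, the latter from 1 human read.

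NANOG, a homeobox factor that is part of the network in both species, was also called. It stood at 541, 556, 517 and 572 RPM in mESC and 46.3 RPM in hESC, or percentiles of 97.9 to 98.2 and 64.6. NANOG thus kept a rank above the middle of the human library. TET2, a 5-methylcytosine oxidase, stood at 66, 92.5, 151 and 152 RPM and 10.7 RPM, with mESC libraries 3 and 4 about level with each other and above libraries 1 and 2.

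The LIF pathway, which 2i medium with LIF feeds directly, gave the receptor genes LIFR and IL6ST and the feedback inhibitor SOCS3 among the called members. LIFR stood at 353, 365, 336 and 294 RPM in mESC and 25.7 RPM in hESC. IL6ST, the gp130 chain that pairs with it, stood at 245, 253, 240.1 and 217 RPM and 37.5 RPM. SOCS3 stood at 165, 139, 151 and 139.6 RPM and 28.6 RPM. STAT3, the transducer itself, was closer, at 186, 199.8, 211 and 206 RPM and 122 RPM, and was not called. LIFR, IL6ST, SOCS3 and STAT3 are on the naive list too, so LIFR, IL6ST and SOCS3 are already counted among the naive calls. Of 11 ranked LIF and STAT3 members, 5 were called higher in mESC (7.26% over all ranked genes) and 0 higher in hESC. The other called members were BCL3, a STAT3 target at 39.1, 43.3, 53.7 and 55.7 RPM and 0.865 RPM, and PIM3, a kinase gene at 123, 127, 196 and 183 RPM and 29.4 RPM.

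PRDM14, a germline and pluripotency regulator, was the exception among the naive genes. It stood at 23.4, 32, 28.9 and 34.2 RPM in mESC and 119 RPM in hESC, 4.01-fold the mESC mean. DPPA3 and GBX2 were not called and varied among the mESC libraries. DPPA3, a maternal-effect gene, stood at 29.9, 18.1, 3.32 and 4.83 RPM and 0.216 RPM, with libraries 1 and 2 above libraries 3 and 4. GBX2, a homeobox gene downstream of STAT3, stood at 85, 69.1, 39.6 and 29 RPM and 23.4 RPM, in the same order.

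**Figure D1:**
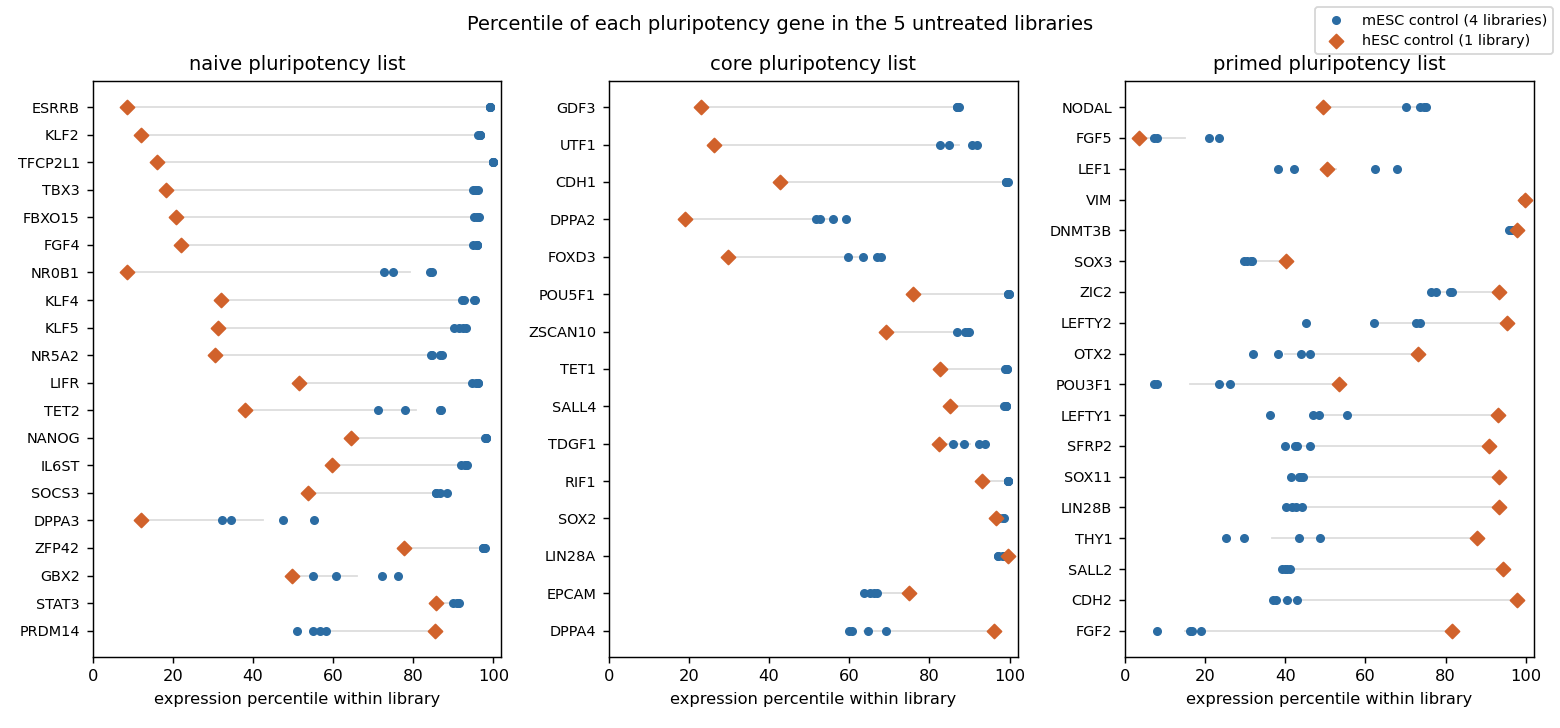
Expression percentile (x axis, 0 to 100 within each library) of every ranked member of the naive, core and primed lists (y axis), with blue points for the 4 mESC control libraries and an orange diamond for the single hESC control library. Most naive genes sit far left in hESC, from ESRRB and NR0B1 at 8.6, and the called primed genes to the right of all 4 mESC points, such as CDH2 at 97.7, while PRDM14 runs the other way from the rest of its list.

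A short list of genes used to recognise human naive cells was likewise low in hESC. Of 6 ranked members, 4 were called higher in mESC and 0 higher in hESC. SUSD2, a surface protein gene used to sort human naive cells, stood at 53.8, 48.6, 33.8 and 29.8 RPM in mESC and 1.95 RPM in hESC. DNMT3L, the cofactor of de novo methylation, stood at 126, 91.2, 117 and 111 RPM in mESC with 0 human reads. KLF17, a human naive factor, had 0 reads in hESC and at most 0.333 RPM in mESC. TFCP2L1, KLF5 and DPPA3 are on this list too.

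The primed genes ran the other way. Of 18 ranked members, 10 were called higher in hESC, 0 higher in mESC and 8 were not called, with a median percentile difference of 35.04 points. The summed level was 1628 to 1759 RPM in mESC and 5266 RPM in hESC. The largest single part of the human sum was VIM, given below. In the same human library 12 of 15 ranked fibroblast markers, THY1 of this list among them, were called higher in hESC. The part of other cells in the primed values was not tested.

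Among transcription factors and RNA regulators, SOX11, an SRY-box factor, stood at 14.5, 10.6, 13 and 13 RPM in mESC and 222 RPM in hESC. SALL2, a spalt-like zinc finger gene, stood at 9.49, 8.17, 10.2 and 9.5 RPM and 247 RPM. LIN28B, an inhibitor of let-7 processing, stood at 11.3, 9.27, 13.6 and 12.2 RPM and 219 RPM. Each of these held a percentile above 93 in hESC and under 45 in every mESC library. POU3F1, a POU factor of the epiblast, stood at 0, 0, 0.767 and 1.33 RPM and 28.3 RPM. SOX3 was not called, at 3.35, 2.65, 3.07 and 2.33 RPM and 13 RPM. ZIC2, a zinc finger factor, was detected in all 5 libraries and not called, at 91, 112, 109 and 84.5 RPM and 218 RPM.

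Among secreted and surface proteins, CDH2, the neural cadherin, stood at 12.8, 6.4, 6.65 and 9.5 RPM in mESC and 512 RPM in hESC, 57.8-fold the mESC mean. SFRP2, a secreted WNT antagonist, stood at 9.49, 12.4, 16.1 and 11.8 RPM and 174 RPM. THY1, a surface antigen that is on the fibroblast list as well, stood at 1.3, 2.43, 12.5 and 19.3 RPM and 139 RPM, with libraries 3 and 4 above libraries 1 and 2. FGF2, the factor added to the human medium, stood at 0.186, 0, 0.256 and 0.167 RPM and 96.4 RPM.

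Several primed genes were not called. FGF5, the classical mark of mouse epiblast-like cells, had 0 reads in hESC and 0, 0, 0.767 and 0.5 RPM in mESC. VIM, vimentin, was too high in mESC to be called, at 978, 1023, 999 and 958 RPM and 2244 RPM, 2.27-fold the mESC mean and above every mESC library. LEF1, a WNT effector, stood at 56.4, 42.6, 11.3 and 7.33 RPM and 24.6 RPM, so the human value fell inside the range of the mESC libraries.

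The core list was mixed. Of 15 ranked members, 1 was called higher in hESC, 5 higher in mESC and 9 were not called. SOX2 stood at 582, 650.5, 457 and 432 RPM in mESC and 391 RPM in hESC. LIN28A stood at 428, 434, 574 and 596 RPM and 1303 RPM. EPCAM, an epithelial adhesion gene, stood at 53.9, 49.5, 46.3 and 51.7 RPM and 71.4 RPM. These 3 stayed within 25 points of at least 1 mESC library, and only the SOX2 level was lower in hESC. DPPA4, a nuclear factor of pluripotent cells, stood at 39.2, 37.8, 60.6 and 47.5 RPM and 342 RPM and was the member called higher in hESC.

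SALL4, RIF1 and TET1 were lower in hESC by RPM and not called. SALL4, a zinc finger factor, stood at 763, 799, 785 and 679 RPM and 118 RPM. RIF1, a regulator of replication timing, stood at 1102, 1064, 1176 and 1129 RPM and 216 RPM. TET1, the main 5-methylcytosine oxidase of ESCs, stood at 694, 859, 958 and 803 RPM and 103 RPM. Each of these 3 genes kept a human rank within 25 points of the nearest mESC library. TDGF1, the Nodal co-receptor, stood at 141, 171, 228 and 272 RPM and 102 RPM, and ZSCAN10, a zinc finger gene, at 173, 186, 183 and 151 RPM and 55.9 RPM.

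The core members called higher in mESC were CDH1, GDF3, UTF1, FOXD3 and DPPA2. CDH1, the epithelial cadherin, stood at 993, 960.0, 771 and 757 RPM in mESC and 15.6 RPM in hESC, opposite in order to CDH2. GDF3, a TGF-beta family ligand, stood at 149.7, 153, 159 and 150.5 RPM and 1.66 RPM. In both, the 4 mESC libraries lay close together and far above the human value. UTF1, a chromatin factor of pluripotent cells, stood at 118, 134, 219 and 197 RPM and 2.74 RPM. FOXD3, a forkhead factor, stood at 37.4, 45.3, 57 and 53.2 RPM and 4.47 RPM. DPPA2, the partner of DPPA4, stood at 24.4, 25.6, 30.9 and 36 RPM and 0.865 RPM.

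POU5F1 (OCT4), the central factor of the core, was lower in hESC by rank without being called. It stood at 1059, 1007, 1332 and 1412 RPM in mESC and 74.5 RPM in hESC, a percentile of 76 against 99.5 to 99.8. The gene lies at human chr6:31164337-31180731 (GRCh38), and 87.6% of the 31-base stretches sampled from its longest transcript also occur on the alternate sequences of hg38, which are second copies of variable regions. Among genes with at least 100 reads in each mESC library, 142 had at least 80% of their sampled stretches on alternate sequences, and 64 of these (45.1%) had 0 human reads. Among the 5776 such genes under 80%, 34 (0.589%) had 0 human reads. At a lower limit of 50% the counts were 66 of 160 (41.3%) and 32 of 5758 (0.556%). Another 288 genes with as many mESC reads had no value for the share, and 20 of these (6.94%) had 0 human reads. The 80% and 50% limits, and the look at alternate sequences itself, came after the values had been seen. Windows of 2 Mb with such genes at 0 gathered on chromosome 6, where 29 of 46 genes between 28000001 and 34000000, the region of the major histocompatibility complex, had 0 human reads. Their median level was 84.9 RPM in mESC and 0 RPM in hESC.

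Genes at least 80% on alternate sequences made up 180 of the 972 called higher in mESC and 0 of the 958 called higher in hESC. Among them is PRPF8, a core splicing factor needed by every cell, which is listed at 0 in hESC and stood at 1366, 1434, 1240.2 and 1072 RPM in mESC. Where a gene listed at 0, or low, in hESC lies mostly on alternate sequences, its share is given below. How reads on those sequences were counted by the authors is not given in the sources used here, and the part of those sequences in these values was not tested beyond the counts above.

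Replication histone genes formed a further group low in hESC. The 48 of them with at least 100 reads in each mESC library had no value for the share on alternate sequences. Their transcripts end in a stem loop with no polyA tail, and the labels give polyA RNA for hESC and total RNA for mESC. Of 51 ranked members, 48 were called higher in mESC, 0 higher in hESC and 3 were not called. Their summed level was 15937 to 21817 RPM in mESC and 73.8 RPM in hESC. HIST1H1A, a linker histone gene, stood at 794, 736, 861 and 1054 RPM in mESC with 0 human reads. HIST1H4A, a histone H4 gene, stood at 544, 524, 626 and 738 RPM in mESC, also with 0 human reads. The part of RNA selection in these values was not tested. The repeat tables give no second reading of it. Ribosomal RNA held 45.1% to 60.5% of all counts in mESC. The human table holds no counts for it, nor for the snRNA, srpRNA, scRNA and tRNA classes, which every cell makes.

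Nuclear noncoding RNAs were lower in hESC as well. The 5 ranked members of that list summed to 3626 to 4028 RPM in mESC and 650.1 RPM in hESC, and 1 of them, SNHG12, was called higher in mESC. MALAT1, a nuclear-retained RNA, stood at 2211, 2519.5, 2724 and 2155 RPM in mESC and 375 RPM in hESC. The housekeeping list gave 0 calls in either direction among 21 ranked members, but 16 of them ranked too high in mESC to be called higher in hESC. By rank 10 lay above and 8 below all mESC libraries.

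**Figure D2:**
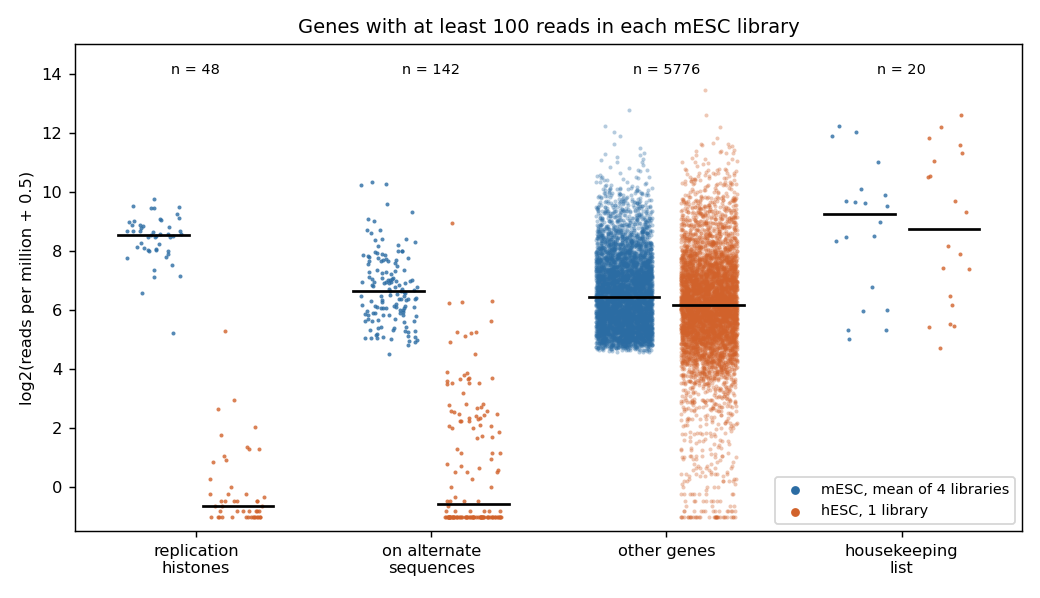
Level of each gene as log2(RPM + 0.5) (y axis) for genes with at least 100 reads in each mESC library, in blue the mean of the 4 mESC libraries and in orange the 1 hESC library, with black lines at the medians. Replication histones (48 genes) and genes at least 80% on alternate sequences (142 genes) lie near the bottom in hESC, at medians of -0.63 and -0.56, while 5776 other genes stand at 6.16 and the 20 housekeeping genes at 8.73.

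FGF ligands and receptors differed by member. Of 10 ranked members, 3 were called higher in hESC and 1, FGF4, higher in mESC (7.16% and 7.26% over all ranked genes). The receptor gene FGFR3 had 0 reads in every mESC library and 106 RPM in hESC, at least 138-fold higher against a floor of 3 reads in the shallowest mESC library. FGFR2 stood at 32, 26.1, 31.2 and 31 RPM in mESC and 112 RPM in hESC. FGFR1, the main FGF receptor of ESCs, was present in both, at 174, 174, 157 and 145 RPM and 500.0 RPM, and was not called. Of the ligands, FGF4 was thus called higher in mESC and FGF2 higher in hESC.

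Downstream are genes that report ERK activity, which the MEK inhibitor in 2i blocks. Of 18 ranked, 5 were called higher in hESC and 2 higher in mESC (7.16% and 7.26% over all ranked genes). DUSP4, a dual-specificity phosphatase gene, stood at 1.67, 2.87, 2.3 and 2.33 RPM in mESC and 47 RPM in hESC. DUSP5 stood at 4.46, 3.53, 4.35 and 3.17 RPM and 44.9 RPM, and DUSP6 at 33.9, 31.8, 35 and 23.8 RPM and 107 RPM. FOSL1, an AP-1 subunit, stood at 0, 0, 0.256 and 0 RPM and 21.8 RPM, and PHLDA1 at 3.53, 1.99, 0.767 and 1.33 RPM and 94.6 RPM. Others of the list did not move with these. SPRY2, a feedback inhibitor, stood at 127, 120.1, 119 and 101 RPM and 85.4 RPM, and ETV5, an ETS factor, was called higher in mESC at 394, 440.1, 469 and 409 RPM and 33 RPM. IER3, the other member called higher in mESC, had 0 human reads and lies 97.0% on alternate sequences.

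In the Nodal and activin pathway, 5 of 17 ranked members were called higher in hESC and 1, GDF3, higher in mESC. Over all ranked genes the shares were 7.16% and 7.26%. Among ligands, NODAL was not called, at 62.5, 74.2, 77.5 and 79.5 RPM in mESC and 23.3 RPM in hESC, and INHBA, the activin A subunit, had 0 reads in all mESC libraries and 14.7 RPM in hESC. Among receptors, ACVR2B stood at 33.9, 32.7, 34.3 and 29.2 RPM and 167 RPM. Of the inhibitors, 3 were called higher in hESC. FST, follistatin, stood at 46.7, 50.6, 28.4 and 22.7 RPM and 749 RPM, and CER1 had 0 reads in all mESC libraries and 92.8 RPM in hESC. LEFTY1 stood at 6.14, 29.8, 16.9 and 19 RPM and 214 RPM, with library 1 the lowest of the mESC libraries. LEFTY2 followed at 15.4, 74, 42.4 and 70 RPM and 286 RPM and was not called. SMAD2, the transducer, was level, at 82.2, 78.4, 78.2 and 76 RPM and 73.3 RPM.

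WNT target genes, which the GSK3 inhibitor in 2i switches on, showed no common direction. Of 16 ranked members, 1 was called higher in hESC and 2 higher in mESC, near the 7.16% and 7.26% over all ranked genes. NKD1, a feedback inhibitor, stood at 2.05, 1.1, 0.256 and 0.5 RPM in mESC and 89.7 RPM in hESC. NOTUM, a secreted WNT deacylase, stood at 97.8, 118, 81.3 and 80.2 RPM and 1.01 RPM. CDX1, a homeobox target, stood at 40.4, 27.4, 14.1 and 10 RPM in mESC with 0 human reads. AXIN2 was not called, at 317, 287, 146 and 137 RPM and 87.8 RPM. The mESC libraries themselves parted here, since the list summed to 1474 and 1344 RPM in libraries 1 and 2 and to 708 and 629 RPM in libraries 3 and 4.

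Among G1 regulators, CCND2, cyclin D2, was called higher in hESC at 10.2, 6.84, 2.05 and 1.67 RPM in mESC and 240.5 RPM in hESC. CCND3, cyclin D3, was called higher in mESC at 159.6, 164, 238 and 235 RPM and 23 RPM. CCND1, cyclin D1, was not called, at 547, 459, 264 and 221 RPM and 777 RPM. The other 11 of the 14 ranked members were not called either. With 1 call in each direction the list was near the 7.16% and 7.26% over all ranked genes.

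Of 11 ranked DNA methylation genes, 1 was called higher in hESC and 3 higher in mESC (7.16% and 7.26% over all ranked genes). TDG, the glycosylase that removes oxidised cytosines, stood at 36.1, 35.3, 35.5 and 36.2 RPM in mESC and 146 RPM in hESC. DNMT3L and TET2, given above, and ZFP57 made up the other direction. ZFP57, which protects imprints, stood at 246, 268, 345 and 301 RPM in mESC with 0 human reads and lies 94.7% on alternate sequences. DNMT1, the maintenance enzyme, and UHRF1, its partner, were not called, at 575, 583, 535 and 493 RPM and 278 RPM for DNMT1 and 783, 784, 868 and 874 RPM and 192 RPM for UHRF1.

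Genes that silence retroelements gave 0 members called higher in hESC and 5 called higher in mESC of 19 ranked (7.26% over all ranked genes). SETDB1, the H3K9 methyltransferase recruited by TRIM28, stood at 437, 406, 317 and 289 RPM in mESC and 55.1 RPM in hESC. MORC3 stood at 221, 225, 246 and 279 RPM and 33.2 RPM, and KDM4C, an H3K9 demethylase, at 94.9, 100.2, 127 and 119 RPM and 18.7 RPM. The remaining pair were EHMT2, which had 0 human reads and lies 82.0% on alternate sequences, and DAXX, at 98.8, 99.1, 108 and 114 RPM and 2.74 RPM and 92.2% on them. Without genes on alternate sequences and histones, 3 of 17 were called. TRIM28 itself was not called, at 2098, 2379.8, 2868 and 2621 RPM and 988 RPM.

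Germline genes were low in both species, with 55.2 to 91.3 RPM in all for 18 ranked members in mESC and 28.8 RPM in hESC. Of these, 4 were called higher in mESC and 1 higher in hESC (7.26% and 7.16% over all ranked genes), and 9 had 0 human reads. PIWIL2, a piRNA pathway gene, stood at 12.3, 6.84, 7.93 and 6 RPM in mESC and DDX4, a germ cell helicase gene, at 5.21, 3.97, 4.35 and 4.83 RPM, both with 0 human reads. TDRKH, a further piRNA gene, stood at 0.372, 0, 0.511 and 0.667 RPM in mESC and 22.9 RPM in hESC.

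Imprinted genes were called in both directions, 5 higher in hESC and 3 higher in mESC of 17 ranked (7.16% and 7.26% over all ranked genes). DLK1, a Notch ligand-like gene, had 0 reads in all mESC libraries and 103 RPM in hESC, while MEG3, the noncoding RNA of the same locus, stood at 175, 222, 212 and 143 RPM in mESC with 0 human reads. PEG3, a zinc finger gene, stood at 193, 171, 119.9 and 115 RPM in mESC, also with 0 human reads. NNAT stood at 2.98, 0.883, 4.86 and 2.67 RPM and 94.9 RPM, NDN at 8.18, 3.75, 2.05 and 3.5 RPM and 60.6 RPM, and IGF2 at 1.12, 0.442, 0 and 0 RPM and 32.5 RPM. PHLDA2, with 0 human reads, lies 96.6% on alternate sequences.

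Metabolic genes ranked high in both species, where the 25-point rule has little room. Of 21 ranked glycolysis and lactate export genes, 17 could not be called higher in hESC, 12 lay above all mESC libraries by rank and 1 was called, ENO2, a neuronal enolase at 2.42, 2.43, 2.05 and 1.83 RPM in mESC and 63.1 RPM in hESC. The summed level was 7341 to 8323 RPM in mESC and 16017 RPM in hESC. GAPDH stood at 211, 221, 200.5 and 216 RPM and 2692 RPM and ENO1 at 474, 508, 620.1 and 643 RPM and 3166 RPM. Both are enzymes of glycolysis with many processed copies in the mouse genome, and the part of those copies in these values was not tested. Without this pair, a choice made after their values were seen, the list summed to 6620.4 to 7464 RPM in mESC and 10159 RPM in hESC, 1.48 times the mESC mean. LDHA, lactate dehydrogenase A, stood at 293, 299, 327 and 414 RPM and 878 RPM, and HK2, hexokinase 2, at 609, 589.8, 539 and 559 RPM and 89.2 RPM. Of 28 ranked respiratory chain genes, 19 lay below all mESC libraries by rank, 5 above them, and 1 was called, COX7A1, at 5.39, 6.62, 5.88 and 6.5 RPM in mESC with 0 human reads, and the list summed to 7796 to 9422 RPM in mESC and 4651 RPM in hESC.

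**Figure D3:**
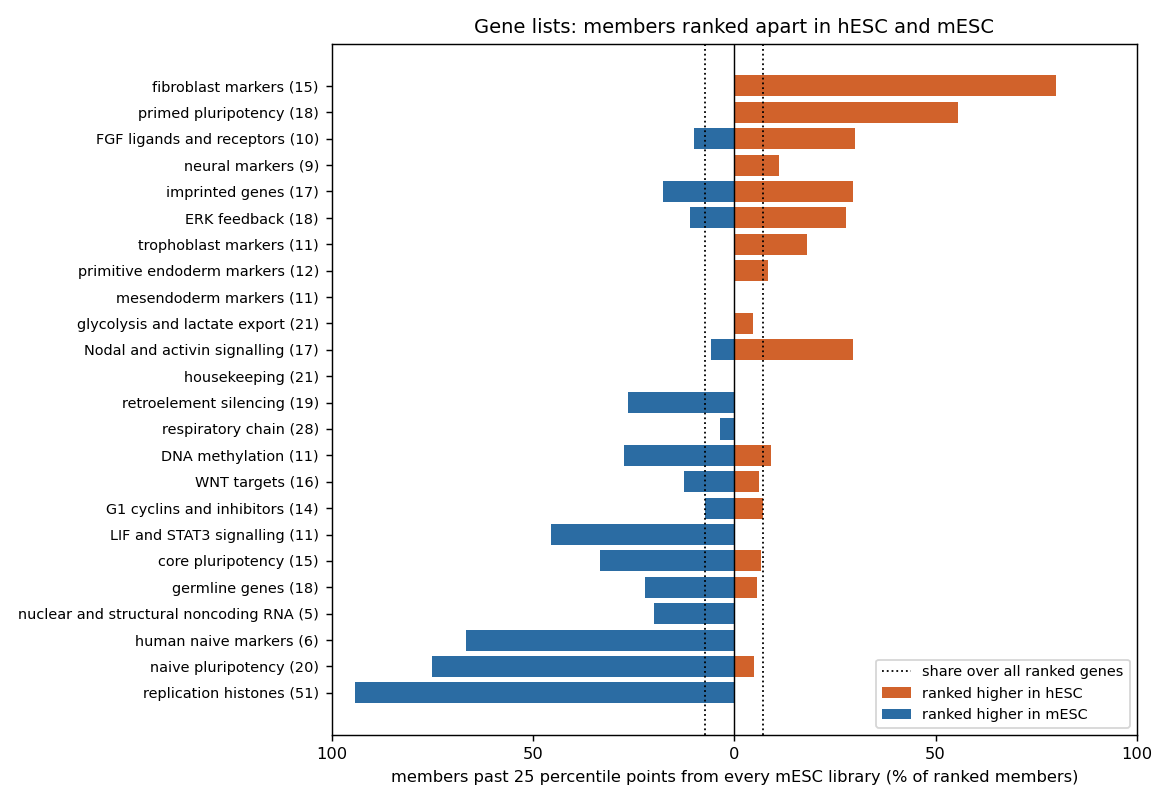
Share of each list's ranked members (x axis, percent, number of ranked members in brackets) called higher in hESC (orange, to the right) or higher in mESC (blue, to the left), with dotted lines at the shares over all ranked genes, 7.16% and 7.26%. Replication histones, naive pluripotency and human naive markers reach farthest to the left, and fibroblast markers and primed pluripotency farthest to the right.

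Markers of other cell types were looked at as well. Of 15 ranked fibroblast markers, 12 were called higher in hESC and 0 higher in mESC, and 6 had 0 reads in all mESC libraries. COL1A1, a chain of type I collagen, stood at 0, 0.221, 0.511 and 0 RPM in mESC and 1309 RPM in hESC. COL1A2, its partner chain, stood at 6.7, 3.31, 0 and 0 RPM and 464 RPM. PDGFRB, a growth factor receptor of mesenchymal cells, stood at 2.23, 1.55, 1.02 and 0.667 RPM and 68.8 RPM. COL3A1, the type III collagen of connective tissue, was called as well, at 0, 0, 0 and 0 RPM and 9.59 RPM. LUM, lumican, was at 0.505 RPM in hESC, and DCN, decorin, had 0 reads in all 5 libraries. The list summed to 1346 to 2439 RPM in mESC, and to 3415 RPM in hESC. Most of the mESC sum was FN1, fibronectin, which ran against the list at 2194, 2389, 1400.1 and 1304 RPM in mESC and 718 RPM in hESC. Without FN1, left out after its values were seen, the other 14 summed to 34.3 to 55.8 RPM in mESC and 2697 RPM in hESC. The part of other cells in the hESC values was not tested.

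Single epithelial and neural markers also stood higher in hESC, beside 7.16% of all ranked genes called in that direction. KRT8 and KRT18, the simple-epithelium keratins, were the only 2 of 11 ranked trophoblast markers called, at 20.5, 23.2, 28.4 and 34.8 RPM in mESC and 561 RPM in hESC for KRT8 and 1.86, 1.77, 3.58 and 4.5 RPM and 343 RPM for KRT18. GATA3, a trophoblast factor, was at 4.83 RPM in hESC and CDX2 at 0. The trophoblast list summed to 158 to 183 RPM in mESC and 1040.2 RPM in hESC, the human sum mostly KRT8 and KRT18. NES, nestin, was the only 1 of 9 ranked neural markers called, at 38.3, 38.4, 34.3 and 44.2 RPM and 1762 RPM, while PAX6, a neural factor, was at 5.41 RPM in hESC. The neural list summed to 111 to 164 RPM and 2045 RPM, the human sum mostly NES. COL4A1, a basement membrane collagen, was the only 1 of 12 ranked primitive endoderm markers called, at 17.9, 18.8, 6.65 and 8.66 RPM and 535 RPM. The primitive endoderm list summed to 222 to 502 RPM and 1033 RPM, the larger part of the human sum from COL4A1. Of 11 ranked mesendoderm markers 0 were called, and T (brachyury) stood at 17.7, 21.2, 2.3 and 1.17 RPM and 0.505 RPM. That list summed to 16.9 to 36.2 RPM in mESC and 51.2 RPM in hESC. The part of such cells in these values was not tested.

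Over all ranked genes, the 10 called higher in hESC with the largest RPM difference on the log2(RPM + 0.5) scale, among those with at least 100 human reads, were TAGLN, COL1A1, MYL9, ACTC1, TNC, VAT1L, ANKRD1, CAV1, LRRN1 and ADD2. TAGLN, transgelin, an actin-binding protein of contractile cells, had 0 reads in all mESC libraries and 1715 RPM in hESC, at least 2236-fold higher. MYL9, a myosin light chain, stood at 0, 0, 0 and 0.167 RPM and 613 RPM, and ACTC1, cardiac actin, at 0 RPM in mESC and 506 RPM in hESC. TNC, the matrix protein tenascin C, stood at 439 RPM in hESC, CAV1, caveolin 1, at 214 RPM and ANKRD1, a YAP target, at 232 RPM. VAT1L, LRRN1 and ADD2 stood at 400.3, 322 and 203 RPM in hESC, and no mESC library exceeded 0.667 RPM for any of these 10.

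The 10 called higher in mESC by the same rule, with at least 100 reads in each mESC library, were PRPF8, TFCP2L1, HIST1H1A, TRH, ESRRB, HIST1H1D, PRRC2A, HIST1H4A, HIST1H3E and HIST1H3I. Of these, 5 are replication histones, and PRPF8 and PRRC2A lie 84.8% and 86.9% on alternate sequences. The rest are TFCP2L1, ESRRB and TRH, the thyrotropin-releasing hormone gene, at 742, 816, 952 and 984 RPM in mESC and 1 read in hESC. With histones and genes on alternate sequences set aside, the next in order included VARS, MORC1, KLF2 and LY75. VARS, a tRNA synthetase gene, is listed at 0 in hESC and had no value for the share on alternate sequences. MORC1, a germline silencing gene, stood at 283, 301, 358 and 364 RPM in mESC with 0 human reads and 0% on alternate sequences, and LY75, an endocytic receptor gene, at 369, 391, 360.3 and 358 RPM against 3 human reads.

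Transposable elements make up much of both genomes and were counted by subfamily. LINEs and SINEs copy themselves through RNA without long terminal repeats, LTR elements derive from retroviruses, and DNA transposons move by excision. Counts over these 4 classes numbered 862275 to 1087750 in mESC and 503019 in hESC. Of them, 37.1% to 44.2% in mESC and 93.9% in hESC were uniquely mapped. The study warns that other transcripts carrying L1 fragments can confound L1 counts. For its mouse L1 loci it kept independently transcribed elements only. No such restriction was made here, so the shares below are of reads on repeats. How much comes from transcription of the elements themselves was not tested.

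Shares are of the summed counts of these 4 classes. By class, LINE elements took 26.9% of hESC counts (95% Clopper-Pearson interval 26.8% to 27.1%) and 16.9% to 18.96% of mESC counts (17.98% ± 0.930, SD, n = 4). LTR elements took 18.6% in hESC (18.5% to 18.7%) and 28.1% to 29.6% in mESC (28.7 ± 0.690). SINEs took 45.1% in hESC (45% to 45.3%) and 40.9% to 43.7% in mESC (42.4 ± 1.43). DNA transposons took 9.34% in hESC (9.26% to 9.42%) and 10.5% to 12.1% in mESC (10.99 ± 0.743). The intervals cover counting error only. The human value lay outside the range of the mESC libraries in each class.

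Of these class differences, only that of LINEs kept its direction under every count tried. With uniquely mapped counts the SINE difference (hESC minus the mESC mean) turned to -8.81 points, and the LTR difference shrank to -1.53 points. With counts per annotated copy the LTR difference turned to 25.6 points. Without the single subfamily FordPrefect, chosen after its values were seen, the DNA difference turned to 6.34 points and the SINE difference to -1.04 points.

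**Figure D4:**
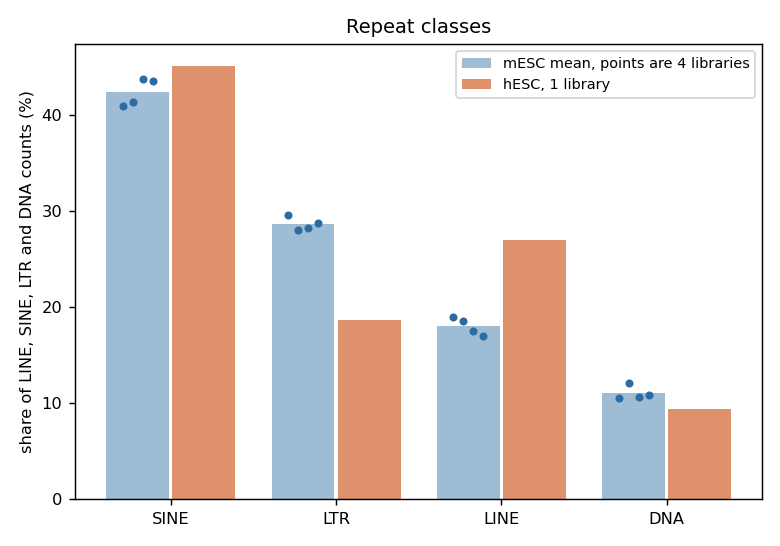
Share of LINE, SINE, LTR and DNA counts held by each class (y axis, percent), with blue bars for the mean of the 4 mESC libraries, blue points for each library and orange bars for the single hESC library. LINE stands at 26.9% in hESC above all 4 mESC libraries and LTR at 18.6% below all of them, while SINE and DNA differ by less.

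Families differed more than classes. The family named Alu, which holds primate Alu and rodent B1 elements, took 36.7% in hESC and 16.5% to 18.0% in mESC. The rodent SINE families B2, B4 and ID took 12.7% to 15.9%, 7.74% to 8.47% and 1.31% to 1.40% in mESC and are not in the human table. MIR, an old mammalian SINE, took 7.96% in hESC and 1.83% to 2.00% in mESC, and L2, an old LINE, 6.27% and 1.14% to 1.24%. The shares are not corrected for copies. MIR has 593715 annotated copies in human and 120436 in mouse, and L2 has 466980 and 67909. L1, the LINE family still active in both species, took 19.1% in hESC and 15.4% to 17.3% in mESC.

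Among LTR families the order turned within the class. ERV1 took 11.2% in hESC and 3.46% to 4.79% in mESC, and ERVK took 0.940% and 13.5% to 14.4%. Their annotated copies differ in the same order, at 175789 in human and 71980 in mouse for ERV1 and 10963 and 319317 for ERVK. ERVL-MaLR took 4.28% in hESC and 7.71% to 7.98% in mESC, and ERVL 1.82% and 2.40% to 2.55%. These last 2 turned in direction with counts per annotated copy. The copies of ERVL run against its share, at 162233 in human and 118061 in mouse. Among DNA families, hAT-Charlie took 4.84% in hESC and 1.81% to 1.98% in mESC, and TcMar-Tigger 3.11% and 0.589% to 0.671%. The family hAT-Tip100 took 0.344% in hESC and 7.75% to 9.37% in mESC, nearly all of the latter FordPrefect. Its copies also run against its share, at 45757 in human and 9331 in mouse. CR1, an old LINE, took 1.01% in hESC and 0.339% to 0.359% in mESC.

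**Figure D5:**
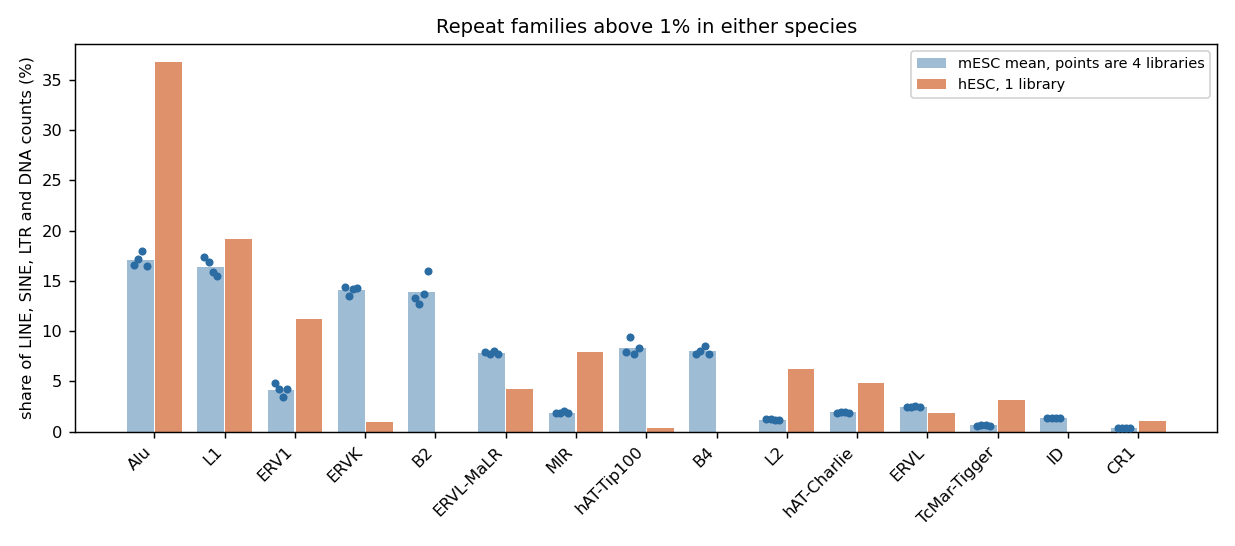
Share of LINE, SINE, LTR and DNA counts (y axis, percent) for the 15 families above 1% in either species, with blue bars for the mESC mean, blue points for the 4 libraries and orange bars for the hESC library. Alu stands at 36.7% in hESC against at most 18.0% in mESC, and ERVK at 0.940% against at least 13.5%.

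Of the 5 leading subfamilies in each species, FordPrefect alone is in both tables. In hESC HERVH-int, the internal part of the endogenous retrovirus HERVH, led with 5.80% from 5879 annotated copies, followed by AluSx1 at 4.34%, AluJb at 3.93%, AluSx at 3.88% and AluSz at 3.45%. Of the HERVH-int counts, 87.1% were uniquely mapped. In mESC FordPrefect led with 7.69% to 9.29%, from 291 annotated copies, followed by MMETn-int, an ERVK element, at 5.13% to 6.54%, the SINE B3 at 3.96% to 4.44%, and B2_Mm2 and ID_B1. Of the MMETn-int counts only 0.374% to 0.612% were uniquely mapped. L1Md_A, a young mouse L1, parted the mESC libraries, at 1.42% in library 4 and 2.88% in library 2.

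A set of 571 subfamilies carried the same name in both tables, out of 1146 human and 1079 mouse subfamilies. They held 43.03% of hESC counts and 18.4% to 20.0% of mESC counts. The rank correlation of their counts was 0.789 to 0.797 between species and 0.978 to 0.985 between mESC libraries, and that of their numbers of annotated copies was 0.844. By the 25-point rule, 29 ranked higher in hESC (5.08%) and 36 ranked higher in mESC (6.3%).

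The 5 with the widest gap toward hESC were L1M6B, LTR39, Charlie14a, FAM and MER4CL34. L1M6B had 456.67 counts from 638 copies in hESC and 0 to 1 count from 43 copies in mESC. LTR39 had 272.32 counts from 1247 copies and 2 to 4 counts from 11 copies, and MER4CL34 had 71 counts from 879 copies and 0 counts from 6 copies. FAM, an Alu-like monomer, had 938.93 counts from 4202 copies and 11.5 to 15 counts from 117 copies. Charlie14a had 474 counts from 473 copies and 2.83 to 9 counts from 72 copies. In all 5 the human genome held more copies.

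The 5 with the widest gap toward mESC were L1M2b, MLT2B5, Charlie12, FordPrefect and MER105. L1M2b had 5 counts from 203 copies in hESC and 117 to 128 counts from only 16 copies in mESC. FordPrefect had 57 counts from 588 copies in hESC and 66270 to 89110 counts from 291 copies in mESC. In both the mouse genome held fewer copies and gave more counts. MLT2B5 had 5 counts from 362 copies and 98.9 to 118 counts from 442 copies. Charlie12 had 9 counts from 14 copies and 91.9 to 119 counts from 902 copies, and MER105 had 0 counts from 11 copies and 30.5 to 44 counts from 171 copies.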

How the data were processed

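Deposited gene values, per the labels and their processing notes, come from reads trimmed with Trim Galore, aligned with HISAT2 to mm10 or hg38 and transformed by the authors with DESeq2 to a log2-like variance-stabilised scale. Versions are not given in the sources used here. The transformation was undone to scaled counts, with the smallest step of a library taken as a count of 1, and 100% of values came out whole within 0.01. Per the study's methods, gene and repeat counts come from SQuIRE. Undoing the transformation was also run on simulated counts transformed by the same formula. That run cannot show what 1 recovered human count stands for. Repeat values are the deposited SQuIRE expected counts per subfamily, in which the authors share multi-mapped reads among copies, and the deposited counts of uniquely mapped reads. Another 5 per-sample columns were not used, and an FPKM column exists for one species only.

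Percentiles were taken in each library over 13385 ranked genes. Python 3.11.15, numpy 2.4.6, pandas 2.3.3 and scipy 1.17.1 were used. Gene positions, transcript lengths (both known for 95.6% of ranked genes) and alternate-sequence shares (95.9%) come from GENCODE 44 and M21. Alternate-sequence shares used 31-base stretches taken every 10 bases. Intervals of repeat shares cover counting error only. The members and gene lists were chosen with earlier results of these data known, and 1 primed gene was later taken off its list and is not reported here. Named are the 5 markers, all naive, core and primed members, up to 6 members per other list with the largest gap to the nearest mESC library plus members that complete a role, the 10 called genes per direction with the largest RPM difference, families above 1%, the 5 leading subfamilies per species and the 5 widest same-name gaps. Other members named beside these (such as DUSP6, AXIN2, CCND1, DNMT1, LDHA and FN1), the genes VARS, MORC1 and LY75 and the subfamily L1Md_A were chosen after their values were seen. Nothing says that the 4 mESC libraries came from separate cultures. Alternatives were other filters, limits, length scaling, the vitamin C libraries and leaving out each mESC library.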

Additional observations from a re-analysis of the deposited data

Results flagged for a closer look

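Among 97 values compared over the 4 mESC libraries (list sums, repeat shares and the naive, core and primed genes), 1 had a library standing apart by the ratio of its gap to the whole range. The summed level of the ERK feedback list was 1064, 1085, 1067 and 885 RPM in libraries 1 to 4, and library 4 was apart with a ratio of 0.897. Chance gives such a value in about 1 in 20 groups.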

How the results depend on the processing

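No paired analysis was possible because the species are compared with 1 human library and no test was run. There were 1119 alternative values. Of those of the main results, 85 kept their direction and moved by less than the limit set for them. Another 24 moved and 6 turned in direction. For the remaining values, list medians and repeat family shares among them, the numbers were 778, 217 and 9. A limit of 10 points gave 3022 genes higher in hESC and 2757 higher in mESC, with 195 calls over the other lists (126 at 25 points). A limit of 40 points gave 314, 403 and 83, and 6 primed calls in place of 10. The 4-fold rule gave 1866 higher in hESC. Per kb of transcript the other lists gave 83 calls, but over 301 members with a known length in place of 356. Without histones and genes at least 80% (or 50%) on alternate sequences, a choice made after the data were seen, they gave 73 (or 74). These were over 293 members. The median percentile difference of the Nodal list turned to -0.44 per kb, and to -0.0125 and -0.0903 in these last cases. That of the DNA methylation list turned to 2.00 over genes with reads in all 5 libraries.

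Repeat differences are hESC minus the mESC mean in points, with -1.66 for DNA, 8.96 for LINE, -10.06 for LTR and 2.76 for SINE as reported. Uniquely mapped counts gave -5.31, 15.7, -1.53 and -8.81. Counts per annotated copy gave -33.4, 4.94 and 25.6 for DNA, LINE and LTR, 0.533 for ERVL-MaLR, 2.32 for ERVL, and 55 and 57 same-name subfamilies higher in hESC and mESC. With all classes as the total, DNA stood at 5.99, LINE at 21.4, LTR at 10.03, SINE at 32.3, ERVL-MaLR at 1.95 and ERVL at 1.09. This total holds the ribosomal RNA counts of the mESC libraries, a class with no counts in the human table. The vitamin C libraries gave 6.44 for LINE and 6.16 for SINE. Without FordPrefect, chosen after the data were seen, DNA stood at 6.34, LINE at 7.34, LTR at -12.6, SINE at -1.04 and hAT-Tip100 at 0.254. Except for that total, where its construction shows it, the cause was not tested. Leaving out each mESC library in turn gave 991 to 1016 and 994 to 1010 called genes, 15 naive and 10 primed calls, 126 to 131 calls in other lists, and differences of -1.83 to -1.29 for DNA, 8.62 to 9.29 for LINE, -10.3 to -9.75 for LTR and 2.28 to 3.21 for SINE. It gave 29 to 34 and 36 to 38 same-name subfamilies. A call needs a gap from every mESC library, so leaving 1 out can only keep or add calls. These call counts could thus not show a loss of calls, though they are among the values that moved by less than the limit. The FPKM alternative was not run, because only the human table has that column. The depth of 3910540 to 6001190 mESC reads leaves a floor of 3 reads at 0.5 to 0.767 RPM.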
